A study of Homo sapiens with 22 samples.

Results

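Stretches of chromatin with the most histone acetylation in untreated K562 cells were followed through treatment with PMA. Super-enhancer-like clusters were defined from H3K27ac at 0 h. H3K27ac regions on chromosomes 1 to 22 and X that overlapped a peak of both 0 h libraries were merged where they lay under 12500 bp apart, and the merged clusters were ranked by their summed CPM (region counts scaled to a common library size). The 500 highest of 17546 clusters were kept. They were built from 2323 of 27693 peak-bearing regions, out of 94896 regions on these chromosomes. The H3K27ac values of 0 h chose the clusters, so H3K27ac against 0 h is described here without a test, and tests are given for Jun, CTCF, Rad21 and for H3K27ac between 6 and 72 h. The clusters are called acetylation clusters below and are named by a gene whose span they overlap or by the nearest gene, which does not say that they act on that gene.

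K562 is a human leukemia line that carries an erythroid programme, and the phorbol ester PMA drives it toward a megakaryocyte-like state. The cells were wild type, were exposed to 25 nM PMA for 0, 6 or 72 h, and in every group were fixed with 1% formaldehyde. Chromatin was profiled with a method that the titles abbreviate as CNR, read here as CUT&RUN, in which an antibody directs a nuclease to cut beside its target. H3K27ac, Jun and CTCF each had 2 libraries at each of the 3 times and Rad21 had 2 libraries at 0 and at 72 h, which makes 22 libraries in 11 groups. The labels do not say that the 2 libraries of a group came from separate cultures, so p-values measure only the spread between these libraries, which may be technical. Counts in regions summed to 12634261 to 27266241 per H3K27ac library, 4766421 to 18883962 per Jun library, 2553677 to 6068421 per CTCF library and 4398797 to 7285286 per Rad21 library.

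H3K27ac is an acetyl mark on histone H3 that is found at active promoters and enhancers. Where many active elements lie close together they are often called a super-enhancer, and such clusters tend to lie at genes that define a cell's identity. Jun is a subunit of AP-1, the dimeric factor that PMA activates through protein kinase C. CTCF binds DNA and stops the cohesin ring, of which Rad21 is a subunit, as cohesin extrudes chromatin loops. In erythroid cells GATA factors bind many such clusters.

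The promoters of red cell surface genes inside the clusters are shown because the clusters of these genes had less H3K27ac and Jun at 72 h, as described below. Each sequence is the 250 bases before a RefSeq transcript start (GRCh38.p14), written from 5′ to 3′ on the gene's strand. Capitals mark a match to AGATAA or TGATAA, the core that GATA factors recognise, on either strand. RHAG lies at chr6:49636840-49637089 on the minus strand, with its match starting 31 bases before the transcript start. GYPB lies at chr4:144019346-144019595 on the minus strand, with its match 39 bases before the start. RHD lies at chr1:25272236-25272485 on the plus strand (match at 53 bases) and RHCE at chr1:25420826-25421075 on the minus strand (match at 76 bases); another RHCE start, with the window chr1:25420936-25421185, had no match. MYB lies at chr6:135181058-135181307 on the plus strand and had no match in this window.
RHAG: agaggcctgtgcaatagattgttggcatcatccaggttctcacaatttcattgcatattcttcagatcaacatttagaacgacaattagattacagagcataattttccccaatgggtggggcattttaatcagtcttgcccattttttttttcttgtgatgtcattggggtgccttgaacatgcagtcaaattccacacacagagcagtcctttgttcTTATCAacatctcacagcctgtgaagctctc
GYPB: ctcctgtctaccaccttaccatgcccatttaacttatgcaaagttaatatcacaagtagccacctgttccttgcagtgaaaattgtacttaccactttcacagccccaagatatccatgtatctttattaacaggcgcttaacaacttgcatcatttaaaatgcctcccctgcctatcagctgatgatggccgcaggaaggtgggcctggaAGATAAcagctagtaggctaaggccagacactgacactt
RHD: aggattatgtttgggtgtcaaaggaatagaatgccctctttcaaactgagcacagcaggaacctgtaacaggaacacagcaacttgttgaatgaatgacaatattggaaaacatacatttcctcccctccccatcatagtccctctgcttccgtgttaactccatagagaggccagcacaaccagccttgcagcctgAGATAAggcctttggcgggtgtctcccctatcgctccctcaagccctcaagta
RHCE: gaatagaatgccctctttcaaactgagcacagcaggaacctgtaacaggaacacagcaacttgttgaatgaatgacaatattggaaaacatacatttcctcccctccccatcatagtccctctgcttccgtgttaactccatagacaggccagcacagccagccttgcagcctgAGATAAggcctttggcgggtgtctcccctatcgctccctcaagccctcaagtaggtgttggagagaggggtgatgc
MYB: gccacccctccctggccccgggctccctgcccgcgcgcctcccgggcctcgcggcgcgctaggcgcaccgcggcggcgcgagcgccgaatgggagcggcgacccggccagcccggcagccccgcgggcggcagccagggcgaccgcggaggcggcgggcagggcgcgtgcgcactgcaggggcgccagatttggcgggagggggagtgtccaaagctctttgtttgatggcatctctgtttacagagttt
The GATA core was found in 10.9% of 853 promoters (of 648 genes) whose start lies in the 500 clusters, in 7.43% of 12544 promoters in any cluster and in 14.6% of all 35116 promoters of this length. The AP-1 core TGACTCA or TGAGTCA, searched on both strands, was found in 2.93%, 2.94% and 4.20% of the same 3 sets. These are matches of letters and were not tested as binding sites.

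The acetylation clusters were long and held several regions. Their median length was 23602.5 bp, with a range from 401 to 98196 bp, and 42 of them were longer than 50 kb. The median cluster held 4 peak-bearing regions and the largest held 20. The strongest region gave a median of 46.2% of its cluster's signal. A single region made up 30 clusters and 2 regions made up 68. Over all 17546 clusters the median length was 2015 bp and 11795 held 1 region. The 500 clusters carried 19.5% of the summed signal of all clusters at 0 h with 8.39% of the peak-bearing regions.

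There was no break in signal at the limit of 500. The last members, at PDE3B, ACBD4 and LINC00963, had 214.849, 214.657 and 214.647 CPM by the rule, and the first clusters left out, at TRIR, LONRF2 and DMTF1, had 214.344, 214.119 and 213.997 CPM. The 500 clusters ranked next had a median of 178.299 CPM and a median length of 14723.5 bp, and they are given below as the nearest comparison. With a merging distance of 5000 bp, 335 members overlapped a cluster of the new set of 500, and with 25000 bp 383 did. A gene span overlapped 93.4% of the members, and 59.2% held a RefSeq gene start, against 39.8% of all clusters. A Jun region with a peak in both 0 h libraries lay in 95.4% of the members, against 90.8% of the next 500 and 61.2% of all clusters. For Rad21 these shares were 91.4%, 87.0% and 46.1%, and for CTCF 47.0%, 42.2% and 19.5%.

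The members were spread unevenly over the chromosomes. Chromosome 6 held 72 of the 500, or 14.4%, against 5.85% of all clusters, and chromosome 1 held 83. Chromosomes 13 and 14 held 2 and 3, and chromosome X held 4. A window of chromosome 6 from 25 to 30 Mb held 13 members among 79 clusters, and a window of chromosome 22 from 20 to 25 Mb held 10 among 78. Counts follow the number of DNA copies, which was not measured here and differs between chromosome arms in this line, so copy number and acetylation per copy cannot be told apart in the ranking.

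Among the members, 5 stood apart from the rest, by a mean above 1000 CPM for another antibody or by 0 h H3K27ac libraries that differed by more than 2-fold. They were singled out after their values were seen. The cluster of rank 1 at chr2:32916182-32916582 was 401 bp long, overlapped no Jun or CTCF region, and had Rad21 at 6080 and 6258 CPM at 0 h and 4884 and 5436 CPM at 72 h. The cluster at chr3:93470291-93470883 had CTCF at 9435 and 9705 CPM at 0 h. The cluster at chr1:629248-634221 spans nuclear copies of mitochondrial genes, and Jun there was 12278 and 15603 CPM at 0 h, 10498 and 8178 CPM at 6 h and 3384 and 3240 CPM at 72 h. The clusters at chr3:144799043-144799581 and chr19:42663223-42663744 owed their rank to 1 library, with H3K27ac at 597 against 43.5 CPM and at 511 against 32.8 CPM in replicates 1 and 2 of 0 h. Among the other 495 the largest difference between these libraries was 1.16-fold. Results that move with these 5 clusters are given with and without them. Mitochondrial sequence took 24.0% and 27.7% of Jun counts at 0 h, 21.3% and 18.1% after 6 h and 9.07% and 8.58% after 72 h. Its part in the Jun results was not tested, and chromosome M is outside the totals used for the shares below.

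The acetylation clusters held a lower share of H3K27ac and Jun counts at each later time. The same held for the next 500 clusters and for all clusters. From 0 to 72 h the mean H3K27ac share went from 9.61% to 6.35% in the next 500 and from 88.7% to 65.6% in all clusters. For Jun these means went from 4.11% to 2.53% and from 55.7% to 33.7%. H3K27ac libraries had 18.0% and 17.8% of their counts in the 500 clusters at 0 h, 13.1% and 13.8% after 6 h and 11.1% and 11.4% after 72 h. Both 72 h libraries lay below both 6 h libraries, as 11.2 ± 0.180% against 13.4 ± 0.463% (SD, n = 2). The exact two-sided permutation test of 2 against 2 libraries gave p = 0.333, which is the smallest value this design allows. The Jun share was 9.13% and 9.73% at 0 h, 7.22% and 7.18% after 6 h and 5.11% and 4.91% after 72 h, without overlap between times (exact p = 0.333 for each pair of times). Without the 5 clusters that stand apart, the shares of H3K27ac were 17.4 ± 0.0204%, 12.7 ± 0.802% and, in the 2 libraries of 72 h, 10.8% and 11.1%, and those of Jun 6.84 ± 0.220%, 5.14 ± 0.531% and 4.27 ± 0.132% (SD, n = 2). The Rad21 share was 11.2% and 9.29% at 0 h and 8.97% and 8.98% at 72 h, and without the 5 clusters 5.28 ± 0.722% and 4.13 ± 0.294%. The CTCF share was 4.85% and 4.98% at 0 h, 6.65% and 4.48% after 6 h and 4.27% and 4.15% after 72 h. Its differences changed sign without the 5 clusters, at 2.20 ± 0.0719%, 1.89 ± 0.0131% and 2.29 ± 0.000461%.

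**Figure D1:**
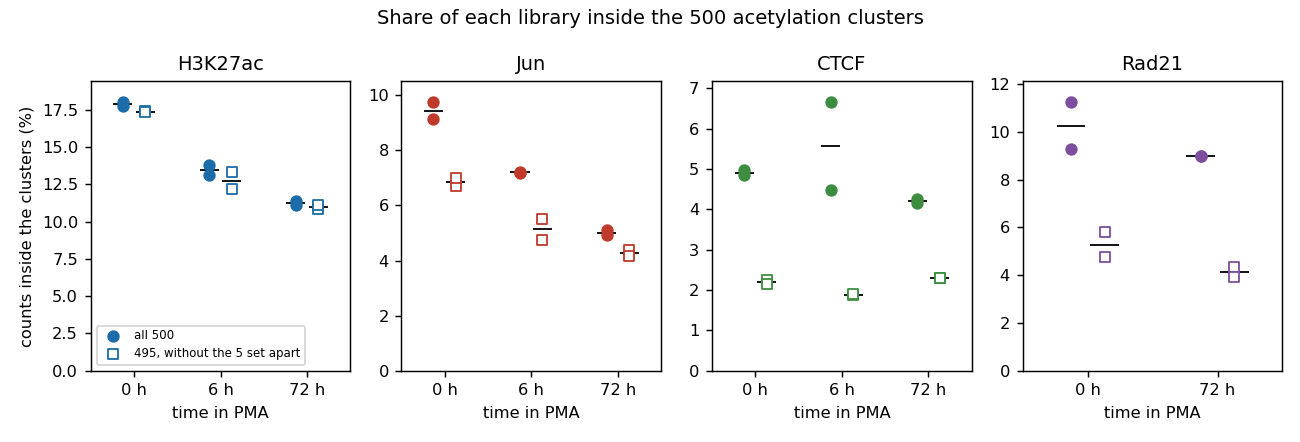
Percent of each library's region counts on chromosomes 1 to 22 and X (y axis, from 0) that lay in the acetylation clusters, by hours in PMA (x axis), with 1 point per library and a bar at the mean; filled circles are all 500 clusters and open squares the 495 without those that stand apart. H3K27ac went from 18.0% and 17.8% at 0 h to 11.1% and 11.4% at 72 h, while of the CTCF share at 0 h, 4.85% and 4.98%, the 5 clusters that stand apart held 2.6% and 2.83%.

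H3K27ac per cluster was lower at both later times than at 0 h, which the choice of the clusters favours and which was not tested. Values per cluster below are CPM scaled with trimmed mean factors (TMM) over the whole region table of the antibody. The median log2 difference was -0.78 at 6 h and -0.95 at 72 h, against -0.71 and -0.84 in the next 500 clusters, -0.46 and -0.79 in all clusters and 0.19 and 0.18 over all regions. Scaling by library totals gave -0.43 and -0.73. When clusters were ranked on one 0 h library and compared in the other, the median stayed between -0.78 and -0.77 at 6 h and between -0.96 and -0.94 at 72 h. At 6 h 155 of the 500 were at least 2-fold lower, against 19.7% of all clusters, and 2 were at least 2-fold higher, against 3.04%. At 72 h these counts were 228 and 2, against 39.5% and 5.79%. In 471 clusters both 72 h libraries lay below both 0 h libraries, and in 15 both lay above. At 72 h 57 clusters were more than 4-fold lower and 19 more than 8-fold lower, and in 18 the mean was above that of 0 h. Counts of separated libraries, of 4-fold and 8-fold differences and of means above 0 h were made in the members only.

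Between 6 and 72 h H3K27ac changed in both directions inside the clusters. It fell in 220 of 500 clusters and rose in 70, 290 in all (edgeR quasi-likelihood test, Benjamini-Hochberg adjusted p under 0.05 over all 17546 clusters). Over all clusters 54% fell and 17.7% rose, or 71.8% in either direction. Leaving out 1 library moved the rises from 70 to between 38 (without replicate 2 of 72 h) and 122 (without replicate 2 of 6 h), the falls to between 150 (without replicate 1 of 72 h) and 286 (without replicate 1 of 6 h), and the median to between -0.27 and -0.07. Library totals called 61 rises and 315 falls. The next 500 had the same number of falls, 220, and 73 rises. The median of the members was -0.17, against -0.33 in all clusters. This split depends on the scaling: DESeq2 with size factors of its own, taken from all merged clusters, gave 248 members higher and 119 lower with a median of 0.16. Regions inside the clusters were tested in the whole region table, where 1423 of 3219 fell and 587 rose, against 30.8% and 33.1% of all regions (63.9% in either direction). Regions of both directions lay together in 131 clusters.

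Jun signal fell over most of the acetylation clusters. At 72 h against 0 h Jun fell in 467 of the 496 clusters tested and rose in 0, against 76.5% and 2.83% of 15610 clusters, or 79.4% in either direction (edgeR). The next 500 clusters had 465 falls among 498 tested. The median log2 fold change was -0.95 in the members, -0.98 in the next 500 and -0.94 in all clusters, but 0.11 over all Jun regions of the genome, so the fall was shared by clusters acetylated at 0 h in general. In 487 of the 500 clusters both 72 h libraries lay below both 0 h libraries, a count made in the members only. At 6 h against 0 h Jun fell in 339 clusters and rose in 9, against 48% and 4.92% (52.9% in either direction), with a median of -0.53. From 6 to 72 h it fell in 308 and rose in 4, against 41.1% and 3.81% (44.9% in either direction), with a median of -0.44. Leaving out replicate 2 of 72 h reduced these 312 calls to 117.

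The Jun fall is a statement about the clusters relative to the rest of the Jun regions. Size factors can also be taken from the counts of all merged clusters, members included. With the factors of the region table the median at 72 h against 0 h was -0.95 in the members and -0.94 in all clusters. With factors from all merged clusters, DESeq2 gave 117 members higher and 131 lower with a median of -0.01. TMM from the same counts, called TMM over the clusters below, gave 126 and 150. DESeq2 with the factors of the region table gave 0 higher and 467 lower. In the region table itself, 1845 of 3082 Jun regions inside the clusters fell at 72 h and 166 rose, against 27.4% and 29% of all regions (56.4% in either direction), and DESeq2 with its own factors there gave 1638 and 70. The 166 rises were 81 and 71 without replicate 1 and 2 of 72 h and 110 without replicate 2 of 0 h. Regions of both directions lay together in 104 clusters. The Jun libraries summed to 7952946 and 8600736 counts at 0 h against 17245043 and 18883962 counts at 72 h, and the part of this depth in the result was not tested.

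**Figure D2:**
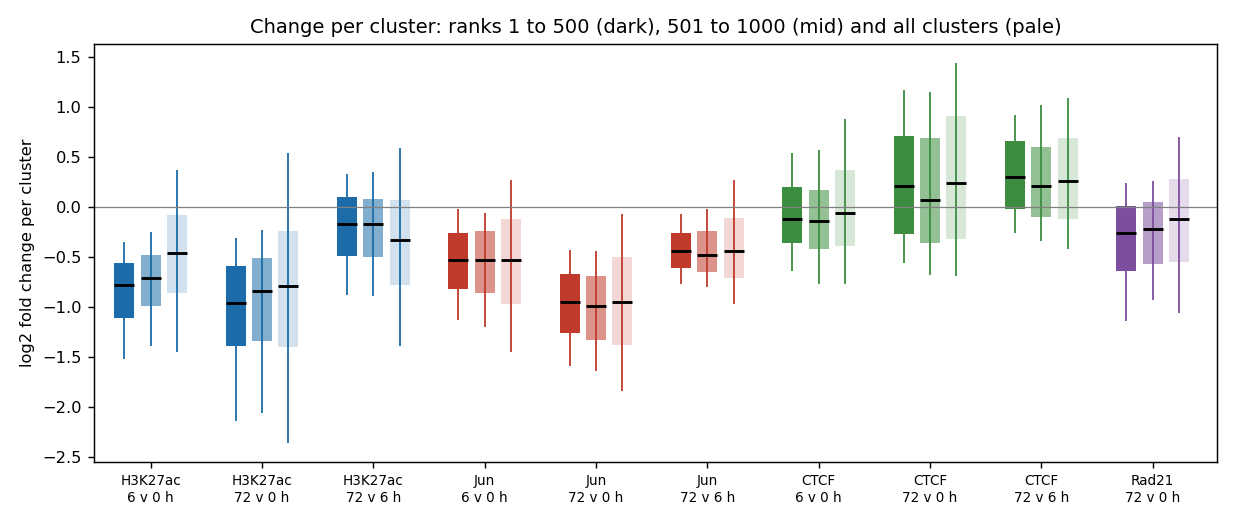
Log2 fold change per cluster (y axis) for each antibody and pair of times (x axis, v for against), with the 500 members in the dark box, the next 500 in the middle box and all clusters in the pale box; boxes run from the 25th to the 75th percentile, black bars are medians, and lines run from the 10th to the 90th percentile. The Jun medians at 72 h against 0 h are -0.95, -0.98 and -0.94, and DESeq2 factors taken from all merged clusters move that of the members to -0.01.

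Changes in H3K27ac and Jun from 6 to 72 h went together across the clusters. Pearson's r was 0.58 and Spearman's rho 0.48 over 496 clusters, and 0.54 and 0.50 over the 468 with more than 1 region. Over all 15610 clusters tested for both they were 0.54 and 0.50, so the relation was not particular to the members. The points share the libraries and the scaling of each antibody, and clusters are not independent replicates. Of the 220 clusters in which H3K27ac fell, Jun fell in 166 over the same interval. Of the 70 in which H3K27ac rose, Jun fell in 11 and rose in 3. Over the 496 members tested, Jun fell in 62.1% and rose in 0.81% over this interval.

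**Figure D3:**
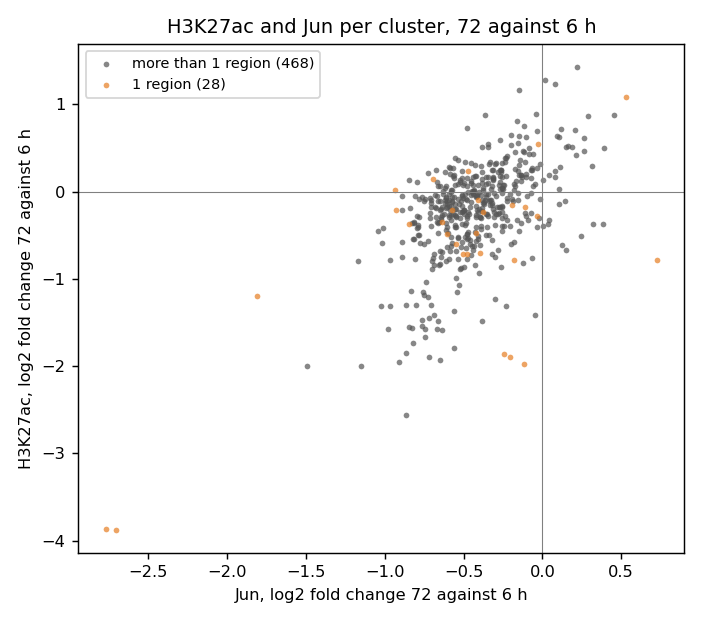
Each point is 1 of 496 acetylation clusters, with the log2 fold change from 6 to 72 h of Jun on the x axis and of H3K27ac on the y axis; orange points are the 28 clusters of 1 region. Most points lie at negative Jun values, and the 2 points at the lower left are the clusters whose rank rested on 1 library.

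Cohesin fell in a part of the clusters. Rad21 at 72 h was lower than at 0 h in 161 of 497 clusters and higher in 14, against 15.9% and 8.3% of 14591 clusters, or 24.2% in either direction (edgeR). The next 500 had 127 falls and 11 rises among 496. The median log2 fold change was -0.26 in the members, -0.22 in the next 500 and -0.12 in all clusters. Jun also fell in 157 of the 161, against 467 of the 496 members tested for Jun. The total of 175 calls rested on single libraries: without replicate 1 of 72 h it was 31 clusters, without replicate 2 of 72 h it was 26, and without replicate 1 of 0 h it was 126, of which 60 were higher and 66 lower, with a median of 0.07. Mitochondrial sequence took 34.1% of the counts of replicate 1 of 0 h and between 24.8% and 30.6% of the other Rad21 libraries, and its part was not tested. Of 2741 Rad21 regions inside the clusters 507 fell and 178 rose, against 8.07% and 15.7% of all regions (23.8% in either direction).

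CTCF changed in few clusters. At 72 h against 0 h it rose in 46 of 445 tested clusters and fell in 22, against 5.66% and 5.94% of 9334 clusters, or 11.6% in either direction (edgeR). The median was 0.21 in the members, 0.08 in the next 500 and 0.24 in all clusters. The number called went from 68 to between 9 and 145 when single libraries were left out: 29 and 9 without replicate 1 and 2 of 0 h, 145 and 142 without those of 6 h, and 10 and 11 without those of 72 h. DESeq2 with its own factors called 11 higher and 34 lower, so no direction is given for CTCF over the clusters. Mitochondrial sequence took between 17.8% and 30.5% of CTCF counts at 0 and 6 h and 9.55% and 9.63% at 72 h, and its part was not tested. At 6 h against 0 h 8 clusters were called, against 1.34%, and from 6 to 72 h 4 were, against 0.279%. Of 1404 CTCF regions inside the clusters 96 were called, 52 higher and 44 lower, against 3.85% and 2.7% of all regions (6.55% in either direction). The number of these regions called was 6 and 1 without replicate 1 and 2 of 0 h, 10 and 8 without those of 72 h, and 329 and 333 without those of 6 h.

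Among clusters that passed the test with libraries of the 2 times that did not overlap, the largest CTCF changes rested on single libraries. The rise at SLC38A4-AS1 was also weakly covered. The CTCF rises of largest size were at SLC38A4-AS1 (1.78 and 2.89 CPM at 0 h, 12.9 and 9.97 CPM at 72 h, edgeR adjusted p = 0.0153), ARHGAP22 (log2 1.81, adjusted p = 0.00523) and SMYD3 (log2 1.75, adjusted p = 0.00997). CTCF fell at LEPR, the leptin receptor gene, from 21.2 and 24.9 CPM to 9.45 and 8.99 CPM (edgeR log2 -1.31, adjusted p = 0.00586). Each of these 4 calls was lost when 1 library was left out. Rad21 rose at ZMYND8, a reader of histone marks, from 21.2 and 13.1 CPM at 0 h to 42.0 and 43.4 CPM at 72 h (edgeR log2 1.29, SE 0.21, adjusted p = 8.02e-08). Called Rad21 rises larger than this and called CTCF falls larger than that of LEPR came from the clusters at chr3:144799043-144799581 and chr19:42663223-42663744. There Rad21 was 41.1 and 378 CPM and 27.1 and 266 CPM in replicates 1 and 2 of 72 h, so 1 library set the value.

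Several of the clusters with the largest differences lay between genes. The cluster at chr6:135073236-135095196 is nearest to the noncoding gene LOC105378010 and lies 18.4 kb from the span of HBS1L and 86.1 kb from MYB, which encodes a transcription factor of blood progenitors, in an interval known for enhancers of MYB. H3K27ac there was 475 and 489 CPM at 0 h, 112 and 127 CPM at 6 h and 20.9 and 19.7 CPM at 72 h. Each time lay below the one before without overlap, and the fall from 6 to 72 h was -2.56 (log2, SE 0.12, edgeR adjusted p = 1.4e-18). Jun there was 124 and 153 CPM at 0 h, 73.8 and 83.8 CPM at 6 h and 43.5 and 43.2 CPM at 72 h, again without overlap (72 against 0 h log2 -1.67, SE 0.14, edgeR adjusted p = 1.46e-13). Rad21 fell from 85.1 and 61.2 CPM to 23.2 and 16.4 CPM (log2 -1.88, SE 0.20, edgeR adjusted p = 9.27e-16). Nearly all of the acetylation lay in 2 of its regions. The region chr6:135073236-135075798 went from 207 and 210 CPM at 0 h to 8.43 and 8.19 CPM at 72 h, and the region chr6:135083381-135086880 from 244 and 252 CPM to 8.54 and 7.17 CPM.

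The neighbouring member at MYB itself, chr6:135179881-135193707, moved less. H3K27ac was 341 and 327 CPM at 0 h, 119 and 132 CPM at 6 h and 125 and 150 CPM at 72 h. The later times overlapped, and no difference passed the test (log2 0.12, edgeR adjusted p = 0.306), although TMM over the clusters gave a rise of 0.44. Jun at MYB was 49.1 and 59.3 CPM at 0 h, 22.7 and 38.1 CPM at 6 h and 29.3 and 27 CPM at 72 h (72 against 0 h log2 -0.95, SE 0.15, edgeR adjusted p = 4.67e-07), a value that moved to -0.01 with TMM over the clusters.

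A cluster at chr18:30675193-30681374, 288 kb from the nearest gene, LOC105372047, had the lowest Jun and Rad21 fold changes of the members. H3K27ac was 351 and 355 CPM at 0 h, 23.2 and 24.0 CPM at 6 h and 8.07 and 8.01 CPM at 72 h. Most of the difference was thus present at 6 h. Jun went from 33.3 and 32.4 CPM at 0 h to 4.61 and 3.35 CPM at 72 h (log2 -3.05, SE 0.19, edgeR adjusted p = 6.33e-17), and Rad21 from 40.9 and 26.2 CPM to 7.59 and 6.41 CPM (log2 -2.26, SE 0.24, adjusted p = 4.78e-15). ERC1, which encodes a scaffold protein, had H3K27ac at 293 and 290 CPM at 0 h and 15.9 and 14.6 CPM at 72 h, and Rad21 fell there by 2.13 (log2, SE 0.23, edgeR adjusted p = 3.98e-15). At THRB, the thyroid hormone receptor beta gene, Jun went from 30.5 and 33.5 CPM at 0 h to 3.63 and 7.85 CPM at 6 h and 4.42 and 5.56 CPM at 72 h (72 against 0 h log2 -2.67, SE 0.20, edgeR adjusted p = 3.08e-15). Jun also fell at ZFPM2, which encodes a GATA cofactor, by 2.24, and Rad21 by 2.04 (log2, edgeR adjusted p = 5.47e-15 and 2.97e-10). At chr6:68039401-68054773 the Jun fall of -2.85 rests on low values, 4.96 and 4.30 CPM at 0 h and 0.856 and 0.424 CPM at 72 h.

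Genes of the red cell membrane gave the fullest group. Of 22 such genes 8 overlapped a member, against 746 of 19970 protein-coding genes (3.74%). Those described here are RHAG, RHD and RHCE of the Rh complex, the glycophorin genes GYPB and GYPC and the glucose transporter gene SLC2A1. Jun at 72 h against 0 h fell in 8 of the 8 clusters with a median of -1.01, against 76.5% lower and a median of -0.94 over all clusters and 467 of 496 members lower, so the count is near that of any members, but with TMM over the clusters SLC2A1 turned to 0.02 and calls at RHD, RHCE and GYPC were among those lost. Rad21 fell in 5 of the 8, RHAG, GYPB and GYPC among them, with a median of -1.11. Over all clusters 15.9% were lower with a median of -0.12, and over the members 32.4% with a median of -0.26. Rad21 falls in the members dropped from 161 to 27 and 23 without replicate 1 and 2 of 72 h, and which of these 5 calls held was not examined. H3K27ac from 6 to 72 h fell in 5 of the 8, with a median of -0.31, against 54% lower and a median of -0.33. This count and median depend on the scaling and were not examined with TMM over the clusters. CTCF at 72 h fell at GYPB alone among the 6 tested.

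At RHAG, whose promoter is printed above, the cluster spans chr6:49633437-49648459. H3K27ac was 577 and 543 CPM at 0 h, 201 and 239 CPM at 6 h and 163 and 188 CPM at 72 h. Both later times lay far below 0 h, and the further fall from 6 to 72 h was small (log2 -0.32, SE 0.12, edgeR adjusted p = 0.0142) and was lost without replicate 2 of 6 h or replicate 1 of 72 h, with TMM over the clusters (-0.0081) and with DESeq2's own factors (0.0066). Jun was 83.6 and 94.5 CPM at 0 h, 27.5 and 37.4 CPM at 6 h and 29.5 and 28.9 CPM at 72 h, so its fall was present at 6 h (72 against 0 h log2 -1.61, SE 0.14, edgeR adjusted p = 2.65e-13). Rad21 fell from 68.7 and 65.4 CPM to 35.4 and 27.7 CPM (log2 -1.08, SE 0.19, edgeR adjusted p = 1.05e-06).

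GYPB encodes glycophorin B, and its cluster at chr4:144003509-144019364 fell further after 6 h. H3K27ac was 275 and 280 CPM at 0 h, 59.1 and 66.5 CPM at 6 h and 18.7 and 20.8 CPM at 72 h (72 against 6 h log2 -1.67, SE 0.10, edgeR adjusted p = 1.59e-15). Jun was 38.6 and 43.0 CPM, 14.5 and 20.4 CPM and 11.2 and 9.93 CPM at these times, with no overlap (72 against 0 h log2 -1.95, edgeR adjusted p = 3.2e-14). GYPB has near-identical copies in the genome, and RHD and RHCE are near-identical to each other, so reads may have been split between copies and each single value is uncertain. GYPC had H3K27ac at 279 and 283 CPM, 106 and 123 CPM and 92.5 and 94.9 CPM (72 against 6 h log2 -0.29, SE 0.10, edgeR adjusted p = 0.0101), with each time below the one before. TMM over the clusters moved the median of the members for 72 against 6 h from -0.17 to 0.14. Whether the small GYPC fall holds with those factors was not examined. RHD, at 544 and 550 CPM, 286 and 314 CPM and 286 and 303 CPM, had overlapping libraries at 6 and 72 h.

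Among 20 erythroid transcription factor genes, 6 overlapped 5 members: MYB, IKZF1, which encodes Ikaros, BACH1, a heme-responsive repressor, LMO2, a bridging protein of GATA complexes, and the joined pair STAT5A and STAT5B, which carry the erythropoietin signal. Jun at 72 h against 0 h fell in 5 of the 5 with a median of -0.95, against 76.5% lower and a median of -0.94 over all clusters, but with TMM over the clusters BACH1 and LMO2 turned to 0.32 and 0.08 and MYB and IKZF1 lost the call. H3K27ac from 6 to 72 h fell at IKZF1, BACH1 and STAT5A with STAT5B, which is 3 of the 5, against 54% of all clusters. Rad21 fell at IKZF1, MYB and LMO2, against 15.9% of all clusters and 32.4% of the members. Which of these Rad21 calls held without 1 library of 72 h was not examined. At IKZF1 (chr7:50331617-50369548) H3K27ac was 474 and 494 CPM at 0 h, 182 and 200 CPM at 6 h and 68.2 and 68.1 CPM at 72 h. Each time lay below the one before, with a fall of -1.49 from 6 to 72 h (log2, SE 0.11, edgeR adjusted p = 2.02e-13).

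Of the globin list 2 of 11 genes shared 1 member at chr16:135713-164675: HBZ, the embryonic zeta globin gene, and NPRL3, whose introns carry the upstream enhancers of the alpha globin genes. H3K27ac there was 293 and 288 CPM at 0 h, 91.8 and 99.1 CPM at 6 h and 78.2 and 79.0 CPM at 72 h. Jun was 27.1 and 26.7 CPM, 11.6 and 11.3 CPM and 10.4 and 9.04 CPM, with both later times below 0 h (72 against 0 h log2 -1.47, SE 0.17, edgeR adjusted p = 2.98e-10). Of 20 heme and iron genes 4 lay in members, among them PPOX, an enzyme of heme synthesis, SLC25A37, the mitochondrial iron importer, and FTL, the ferritin light chain. Jun fell in all 4 at 72 h, with a median of -1.18, against 76.5% lower and a median of -0.94 over all clusters, and H3K27ac fell at PPOX and SLC25A37 from 6 to 72 h (edgeR log2 -0.47 and -0.26, adjusted p = 0.000136 and 0.0338). With TMM over the clusters, SLC25A37 kept the sign of the Jun change and lost the call. The H3K27ac falls at PPOX and SLC25A37 were not examined with those factors. Over all clusters H3K27ac fell in 54% from 6 to 72 h.

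Some genes of the megakaryocyte programme lay in the clusters of 0 h. Of 11 transcription factor genes RUNX1 alone had a member, a single region at chr21:34905441-34908482. H3K27ac there was 253 and 249 CPM at 0 h, 61.8 and 73.4 CPM at 6 h and 18.8 and 17.7 CPM at 72 h, each time below the one before (72 against 6 h log2 -1.89, SE 0.10, edgeR adjusted p = 1.11e-16). Jun was 50.5 and 46.4 CPM, 17.9 and 18.2 CPM and 18.0 and 13.5 CPM (72 against 0 h log2 -1.62, SE 0.15, edgeR adjusted p = 8.22e-13), and Rad21 fell by 1.35 (log2, edgeR adjusted p = 2.42e-08). Of 23 platelet genes GP1BB, a subunit of the von Willebrand factor receptor, and TUBB1, a platelet tubulin, lay in members. Jun fell in both at 72 h, as in 76.5% of all clusters (log2 -1.47 and -0.59, edgeR adjusted p = 4.11e-12 and 0.000162), but TUBB1 turned to 0.35 with TMM over the clusters.

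Of 12 AP-1 genes FOSB and JUND lay in members, and of 21 early response genes none of those listed did. At JUND (H3K27ac 275 and 284 CPM at 0 h, 169 and 204 CPM at 6 h, 197 and 211 CPM at 72 h) Jun was 135 and 144 CPM, 74.2 and 82.8 CPM and 45.6 and 42.1 CPM. Jun thus fell at each step without overlap (72 against 0 h log2 -1.67, SE 0.14, edgeR adjusted p = 8.23e-14). At FOSB H3K27ac was 387 and 388 CPM, 366 and 407 CPM and 428 and 463 CPM, and CTCF fell from 376 and 386 CPM at 0 h to 203 and 210 CPM at 72 h (log2 -0.88, edgeR adjusted p = 0.0215). The Jun fold change of FOSB, -0.91, turned to 0.03 with TMM over the clusters. Of 18 survival and cell cycle genes BCL2L1, CCND3, MCL1 and PIM1 lay in members. Jun fell in the 4 of them at 72 h, against 76.5% of all clusters, where BCL2L1 and PIM1 turned to 0.57 and 0.21 with TMM over the clusters. The BCL2L1 call was also lost with library totals (log2 -0.13), without replicate 2 of 0 h (log2 -0.21) and without either library of 72 h. BCL2L1, the gene of the survival protein BCL-XL, had H3K27ac at 760 and 801 CPM at 0 h, 367 and 442 CPM at 6 h and 535 and 579 CPM at 72 h, a partial return (72 against 6 h log2 0.46, SE 0.12, edgeR adjusted p = 0.00124).

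Of short lists of marker genes, 1 of 8 erythroid and 0 of 12 lymphoid, 0 of 7 epithelial and 0 of 6 fibroblast genes lay in a member, counts too small beside 3.74% of protein-coding genes to check the cell type. Of 6 monocyte markers FCGR3A did, and Jun fell in that cluster at 72 h (log2 -0.87, edgeR). Jun also fell in 467 of the 496 members tested and in 76.5% of all clusters. The FCGR3A value was not examined with TMM over the clusters.

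**Figure D4:**
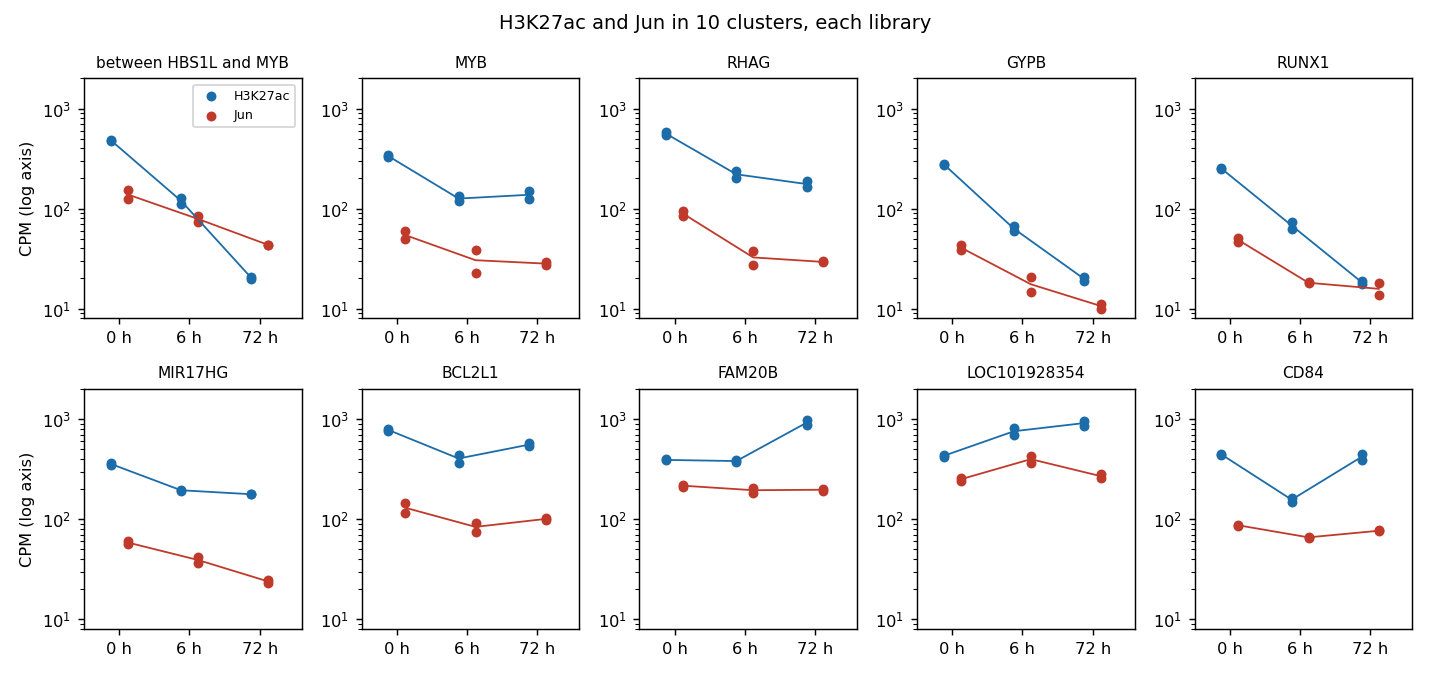
CPM of H3K27ac (blue) and Jun (red), scaled over the whole region table, in each library (points) and their means (lines) at 0, 6 and 72 h (x axis, not to scale in time), on a log axis, in 10 named clusters. In the upper row H3K27ac at 72 h lies below 0 h, from 475 and 489 CPM to 20.9 and 19.7 CPM between HBS1L and MYB, and in the lower row FAM20B and LOC101928354 lie above it.

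The clusters held 39 of 1562 microRNA hairpins of the RefSeq table (2.50%), in 30 clusters. The cluster at MIR17HG, chr13:91347007-91360208, carries the miR-17 to miR-92a transcript, and that at FAM222B, chr17:28841384-28875016, carries erythroid miR-144. Mature sequences are given 5′ to 3′ with the seed, bases 2 to 8, in capitals, since miR-17-5p and miR-20a-5p share a seed and so do both miR-19 members.
hsa-miR-17-5p: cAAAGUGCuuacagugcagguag
hsa-miR-20a-5p: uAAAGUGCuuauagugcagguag
hsa-miR-18a-5p: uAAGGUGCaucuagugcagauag
hsa-miR-19a-3p: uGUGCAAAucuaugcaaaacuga
hsa-miR-19b-3p: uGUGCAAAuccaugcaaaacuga
hsa-miR-92a-3p: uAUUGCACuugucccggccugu
hsa-miR-144-3p: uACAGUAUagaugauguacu
At MIR17HG H3K27ac was 350 and 365 CPM at 0 h, 194 and 196 CPM at 6 h and 179 and 177 CPM at 72 h. Jun was 60.8 and 56.3 CPM, 42.0 and 36.3 CPM and 24.6 and 23.2 CPM, each time below the one before (72 against 0 h log2 -1.29, edgeR adjusted p = 3.88e-11). At FAM222B H3K27ac was 596 and 603 CPM, 193 and 218 CPM and 212 and 221 CPM, with both later times below 0 h and overlapping each other.

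Some clusters had as much acetylation at 72 h as at 0 h, or more. FAM20B, the gene of a xylose kinase of proteoglycan synthesis (chr1:179016666-179061807), had the highest H3K27ac at 72 h relative to 0 h. H3K27ac was 388 and 396 CPM at 0 h, 372 and 392 CPM at 6 h and 870 and 976 CPM at 72 h, so the rise came after 6 h (log2 1.27, SE 0.12, edgeR adjusted p = 4.29e-11). Jun there was 212 and 221 CPM, 185 and 206 CPM and 203 and 192 CPM, and no change passed the test (72 against 0 h log2 -0.13, SE 0.15, edgeR adjusted p = 0.403). Its 16 H3K27ac regions were all higher at 72 h than at 6 h. The region chr1:179044849-179047073 went from 31.7 and 33.1 CPM at 0 h to 106 and 114 CPM at 72 h, while the first region, chr1:179016666-179019376, went from 82.8 and 84.7 CPM to 65.1 and 71.0 CPM.

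LOC101928354 (chr6:14693073-14744627) was higher already at 6 h. H3K27ac was 423 and 439 CPM at 0 h, 700 and 818 CPM at 6 h and 860 and 971 CPM at 72 h. Jun was 242 and 259 CPM, 368 and 429 CPM and 282 and 256 CPM, high at 6 h and overlapping 0 h again at 72 h (6 against 0 h log2 0.67, SE 0.16, edgeR adjusted p = 0.000687, a call lost without replicate 1 of 0 h). Rad21 rose from 130 and 124 CPM to 295 and 266 CPM (log2 1.15, SE 0.19, edgeR adjusted p = 1.65e-07) and CTCF from 22.2 and 28.5 CPM to 73.3 and 86.4 CPM (log2 1.67, SE 0.24, edgeR adjusted p = 0.00036). RREB1, which encodes a zinc finger factor, had a similar Jun course, with 35.1 and 40.4 CPM, 57.4 and 58.9 CPM and 29.5 and 30.0 CPM (6 against 0 h log2 0.62, SE 0.14, edgeR adjusted p = 0.000391), while its H3K27ac went from 670 and 686 CPM to 246 and 249 CPM.

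Other clusters dipped at 6 h and returned. CD84, a gene of the SLAM receptor family, had H3K27ac at 440 and 448 CPM at 0 h, 150 and 164 CPM at 6 h and 393 and 451 CPM at 72 h. The 72 h libraries overlapped those of 0 h, and the rise from 6 h was 1.43 (log2, SE 0.12, edgeR adjusted p = 1.65e-12). LINC02625 (476 and 492, 234 and 253, then 509 and 585 CPM) ended above 0 h, with a rise of 1.17 from 6 h (log2, edgeR adjusted p = 2.14e-10). MIR4435-2HG, the cluster of rank 10, had 901 and 901 CPM at 0 h, 248 and 236 CPM at 6 h and 370 and 385 CPM at 72 h, a partial return (log2 0.64, edgeR adjusted p = 1.11e-05). Near CYB5R4 and FMO10P the rises from 6 to 72 h were 1.24 and 1.09 (log2, edgeR adjusted p = 1.52e-11 and 1.27e-09), and 72 h stayed below 0 h in both.

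**Figure D5:**
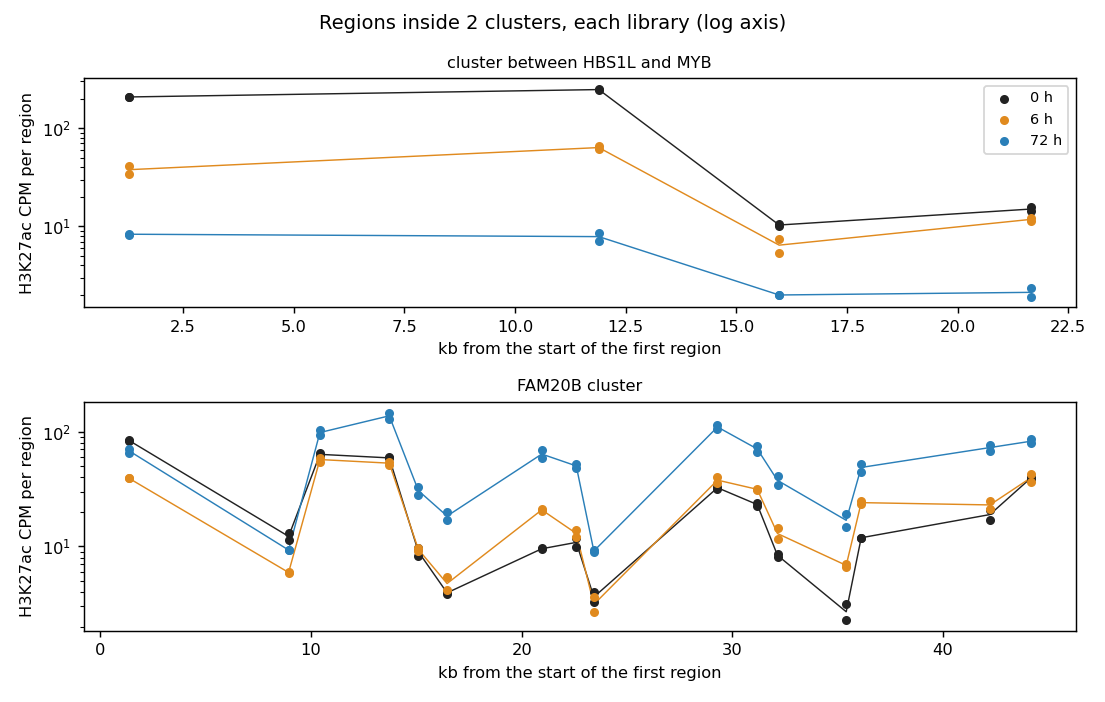
H3K27ac CPM of each region (y axis, log scale) against its distance in kb from the start of the first region of the cluster (x axis), for the cluster between HBS1L and MYB (upper) and the FAM20B cluster (lower), with 1 point per library and lines through the means at 0, 6 and 72 h. All 4 regions of the upper cluster lie lowest at 72 h, and in the lower one the regions beyond the first pair lie at or above their 0 h level by 72 h.

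The clusters with the highest signal at 0 h, leaving out rank 1, ran alongside the rest. STXBP5-AS1 (chr6:146855000-146899006) had H3K27ac at 1432 and 1520 CPM at 0 h, 690 and 822 CPM at 6 h and 509 and 545 CPM at 72 h, each below the one before. Jun fell there by 1.21 and Rad21 by 1.27 at 72 h (log2, edgeR adjusted p = 2.98e-09 and 6.34e-09). Log2 differences in H3K27ac from 0 to 72 h were -0.54 at DLGAP1, -0.88 at VAPA, -1.91 at SGMS1, -1.82 at CPED1, -0.63 at LSM2, -1.56 at LINC02695 and -0.48 at ABHD16A. Jun fell at 72 h in the 9 clusters of rank 2 to 10, between -0.33 at MIR4435-2HG and -1.36 at CPED1. It also fell in 467 of the 496 members tested and in 76.5% of all clusters. TMM over the clusters moved the Jun median of the members to -0.02, and these 9 values were not examined with it.

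Short clusters differed from 0 h by more than long ones did, which is a description only. The H3K27ac values of 0 h chose the clusters and also enter this difference. A short cluster had to reach the same summed signal over fewer bases, and the part of this choice in the order by length was not tested. The shortest group also holds the clusters that stand apart. The 125 shortest clusters, from 401 to 13130 bp, had a median H3K27ac difference at 72 h of -1.15 (log2), the next groups of 125 had -0.98 and -0.85, and the 125 longest, from 35178 to 98196 bp, had -0.79. For Jun the medians were -1.05, -0.97, -0.91 and -0.83, and for Rad21 -0.41, -0.36, -0.20 and -0.16. Across the 500 clusters length and the H3K27ac difference had a Pearson r of 0.24, a description over points that share the same libraries. Leaving out the clusters of 1 region changed the median H3K27ac difference to -0.92.

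H3K27ac peak calls inside the clusters were lost and gained in shares within 2 percentage points of those in all clusters. Of the 2323 regions with H3K27ac peaks in both 0 h libraries, 1532 (65.9%) had peaks in both libraries at 6 h and 1804 (77.7%) at 72 h, against 66.4% and 76.5% over all clusters. In 223 clusters every such region kept its peaks at 72 h and in 4 none did. Of 670 regions inside the clusters with no peak in either 0 h library, 35 (5.22%) had peaks in both libraries at 6 h and 173 (25.8%) at 72 h. Over all clusters these shares were 5.39% and 27%. Jun regions with peaks in both libraries numbered 1433 at 0 h, 890 at 6 h and 2012 at 72 h, although the Jun level in the clusters fell. These were 46.1%, 28.6% and 64.8% of the Jun regions inside the members, against 46.1%, 25.6% and 63.2% over all clusters. At 72 h 524 of 1281 regions with no Jun peak at 0 h had one in both libraries, or 40.9%, against 36.4% in the next 500 clusters and 36.7% over all clusters. CTCF had 369, 222 and 426 regions with peaks in both libraries at 0, 6 and 72 h, and Rad21 1087 at 0 h and 774 at 72 h. For CTCF these were 24.7%, 14.8% and 28.5% of its regions inside the members, against 26.5%, 15.9% and 28.5% over all clusters. For Rad21 they were 39.03% and 27.79%, against 36.34% and 26.98% over all clusters. Peaks were called by the authors in each library, so their number follows depth, which for Jun was highest at 72 h, and its part in these counts was not tested.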

How the data were processed

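Chromatin profiles of H3K27ac, Jun, CTCF and Rad21 came from 22 libraries of K562 cells. The authors deposited, for each antibody, a table of whole-number counts per region and library, and per-library peak lists with a fold enrichment and −log10 p and q values per peak. The deposited tables also hold the authors' log2 fold changes and adjusted p-values, which were not used here. Per the submitters' processing notes, Trim Galore 0.4.3, BWA 0.7.17, SAMtools 1.9, deepTools 3.0.1, MACS2 and bedtools 2.26 were used, and builds hg19 and hg38 are listed; the contig names and positions in the files are those of GRCh38 (hg38), whose coordinates are given, counted from 1. Peak parameters are not given in the sources used here. The rule uses counts over the library's column total.

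Counts were summed over the regions of each antibody that overlap a cluster. Each antibody was fitted over all clusters, and again over all regions, with edgeR 4.0.16 (R 4.3.3): quasi-likelihood test, all times in 1 fit, no replicate block, low counts removed by filterByExpr, TMM factors from the whole region table, and Benjamini-Hochberg adjusted p under 0.05. Standard errors are the size of the log2 fold change over the square root of F. DESeq2 1.42.0 was an alternative. On simulated counts for all clusters with 200 changed, H3K27ac and Jun each recovered 200, CTCF 189 and Rad21 197. Shares were compared by exact permutation over libraries. Genes, promoters and microRNAs came from RefSeq tables (GRCh38.p14), so no genome sequence was used for the peaks.

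The clusters, gene lists and tests were chosen with earlier results of these data known. Named clusters were the 10 highest at 0 h, those called with the largest differences per antibody and pair of times among clusters whose libraries did not overlap, and members of the gene lists. MIR17HG, FAM222B and the promoters printed were chosen after their values were seen. Alternatives were library totals, no filter, other merging distances, a replicate block, only the times compared, DESeq2 and leaving out each library. TMM over the clusters, DESeq2 with region factors, and leaving out single-region clusters or those that stand apart were added after seeing the data. Values of some listed genes are not reported here, and list counts and medians cover them.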

Additional observations from a re-analysis of the deposited data

How the results depend on the processing

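Scaling moved many Jun and CTCF counts, while of 60 named values 59 kept direction and call with library totals, 56 with DESeq2 and region factors, 43 with TMM over the clusters and 37 with DESeq2. DESeq2 with its own factors called 199, 248 and 81 clusters for Jun (6 against 0 h, 72 against 0 h, 72 against 6 h), 5, 45 and 9 for CTCF, and 25 CTCF and 238 Rad21 regions. TMM over the clusters called 276 and 108 for Jun (72 against 0 h and against 6 h) and 2 for CTCF (72 against 6 h). DESeq2 with region factors called 24 for CTCF (72 against 0 h). Library totals called 195 for Jun and 27 for CTCF (72 against 6 h) and gave H3K27ac medians of -0.43 at 6 h and -0.73 at 72 h. For Jun at 72 against 0 h the sign reversed under DESeq2 and TMM over the clusters at BCL2L1 (0.57 and 0.57), SLC2A1 (0.0209 and 0.0177), TUBB1 (0.35 and 0.35), FOSB (0.0304 and 0.0272), BACH1 (0.33 and 0.32), PIM1 (0.22 and 0.21) and LMO2 (0.0875 and 0.0838), and for H3K27ac at RHAG under DESeq2 (0.0066). At the level of clusters, DESeq2's own factors and TMM over the clusters were taken from all merged clusters. The cause of the differences was not tested.

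With 5000 bp merging, 1 and 0 clusters were called for CTCF (6 against 0 h, 72 against 6 h), and the H3K27ac share differed by -3.75 and -5.44 percentage points at 6 and 72 h. Fitting only the times compared called 5 and 151 CTCF clusters (6 and 72 against 0 h) and 347 CTCF regions. Without clusters of 1 region the H3K27ac share differed by -6.03 points at 72 h, and without those that stand apart by -6.40, where CTCF differed by -0.310, 0.0900 and 0.40 points (6 against 0, 72 against 0, 72 against 6 h).

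The replicate number did not pair the libraries: correlations of deviations lay between -0.0438 and 0.114. With the replicate block 12 clusters (72 against 6 h) and 211 regions (72 against 0 h) were called for CTCF, and none of the 60 named values changed its call.

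Leaving out 1 library gave 117 to 375 clusters for Jun (72 against 6 h), 4 to 17, 9 to 145 and 0 to 71 for CTCF (6 against 0, 72 against 0, 72 against 6 h), 1 to 333 CTCF regions, 26 to 202 Rad21 clusters, 247 to 729 Rad21 regions, and a CTCF share difference of -0.428 to 1.74 points (6 against 0 h). Totals in either direction were 210 to 346 for H3K27ac and 248 to 413 and 428 to 486 for Jun (6 and 72 against 0 h), but H3K27ac rises alone were 38 to 122 and Jun region rises 71 to 203. Of 348 such values of named clusters 326 kept direction and call and 22 lost the call. CTCF, with the fewest counts, is the least certain.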
